A study of Sus scrofa with 22 samples.

Results

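Transcript levels in pig muscle were compared between 28 days after birth (28 dpn, 6 animals) and 94 days after conception (94 dpc, 6 animals), a late fetal age. These 12 samples were chosen by their stage labels from the 22 of the series, and no difference between the stages was used to choose them. This choice of stages avoids arrays of newborn animals with low 5' signal, a measured property of those arrays. All animals were offspring of German Landrace gilts fed an adequate protein diet in gestation, so every sample shares breed and diet and no effect of diet was tested. The litters of 3 gilts supplied each stage, and the labels give neither the gilt nor the sex of an animal. The p-values treat the animals as independent, and likeness between littermates would make them too small. The tissue label of each sample reads liver, whereas the title of the series names muscle. All 20 measured genes of a skeletal muscle fibre list lay above background on every one of the 12 arrays, whereas of 27 hepatocyte genes 7 did so on all arrays of 94 dpc and 5 on all arrays of 28 dpn. The tissue is therefore called muscle here, and the labels do not name the muscle.

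In late gestation most muscle fibres of the pig have formed but are thin, still carry developmental isoforms of contractile proteins and lie in a loose, growing connective tissue. After birth the fibres enlarge, exchange those isoforms for adult fast and slow ones, store glycogen and gain mitochondria, while the precursor cells that feed them divide less. Bulk tissue averages over fibres, precursor cells, fibroblasts, vessels, nerves and immune cells. A lower signal can therefore come from fewer cells of a type or from less RNA per cell, and these cannot be told apart.

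Each array gave a linear signal per probe set, scaled by the authors to the same trimmed mean. The background level, set by 23 control probe sets whose targets were absent, was a signal of 68.7. Differences are given as 28 dpn minus 94 dpc on log2(signal + 16), which understates the change of dim genes, and a fold is taken on that scale. A gene was called at an adjusted p under 0.05 in limma, with adjustment over 23999 probe sets, and is represented by its brightest probe set. Several technical values moved with stage. The 27 probe sets of the hybridisation controls, added in fixed amount to each hybridisation, lay between a mean log2 signal of 11.6 and 12.0 on the arrays of 94 dpc and between 12.4 and 12.7 on those of 28 dpn, a shift of log2 0.83. The 28S ribosomal RNA probe set ranged from 7052 to 31864 at 94 dpc and from 56425 to 68483 at 28 dpn, and the 5'/3' ratio of the spiked dap transcript was 0.0623 to 0.096 at 94 dpc and 0.355 to 0.407 at 28 dpn. The highest signal on an array was 44618 to 59969 at 94 dpc and 92049 to 111760 at 28 dpn. The 5'/3' ratio of GAPDH itself overlapped between the stages, from 1.1 to 1.25 at 94 dpc and from 0.731 to 1.26 at 28 dpn. That of the elongation factor EF1A did not overlap, from 0.785 to 0.953 at 94 dpc and from 0.588 to 0.725 at 28 dpn. Dividing each array by its hybridisation controls lowers every difference by log2 0.83, so a rise smaller than that turns into a fall on that scale. The part of these technical values in the results was not tested.

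Hepatocyte transcripts varied between arrays of the same stage. The summed signal of the 27 hepatocyte genes had a lowest, median and highest value of 8600, 20587 and 65764 at 94 dpc and of 4293, 7792 and 19489 at 28 dpn. Replicates 1 and 4 of 94 dpc and replicates 1 and 2 of 28 dpn held the most hepatocyte genes above background, 25, 24, 25 and 23 of 27. These 4 are called the arrays rich in hepatocyte transcripts below, by that count and not by the sum. Their sums were the highest of their own stage. Replicates 3 and 5 of 94 dpc, with sums of 20327 and 20846, were kept although they exceeded replicates 1 and 2 of 28 dpn (19489 and 14239). The liver-secreted glycoprotein AHSG had lowest, median and highest signals of 172, 4927 and 21645 at 94 dpc and 29.5, 191 and 1596 at 28 dpn, so that the stages overlapped. Of the hepatocyte list 3 genes were called higher and 3 lower, against 22.4% and 26.2% of all named genes. On the hybridisation control scale 2 were higher and 10 lower. With those 4 arrays left out 2 were higher and 5 lower, and with 3 of them, all but replicate 4 of 94 dpc, 2 and 6. The apolipoprotein APOA1 was lower at 28 dpn without overlap, from a mean of 8823 ± 2145 to 2174 ± 513 (SD, n = 6 and 6; log2 -2.02, SE 0.19, adjusted p = 5.2e-06). The protease inhibitor SERPINA1 was called lower (log2 -2.52) and the complement component C3 higher (log2 2.50), each with overlap, and the call of SERPINA1 was lost when some single arrays were left out. With those 4 arrays left out 6399 probe sets were called, 2795 higher and 3604 lower, and with only replicate 1 of 94 dpc and replicates 1 and 2 of 28 dpn left out 7664 were. Both sets of arrays were chosen after the hepatocyte markers had been seen, the set of 3 first, and both leave fewer animals.

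**Figure D1:**
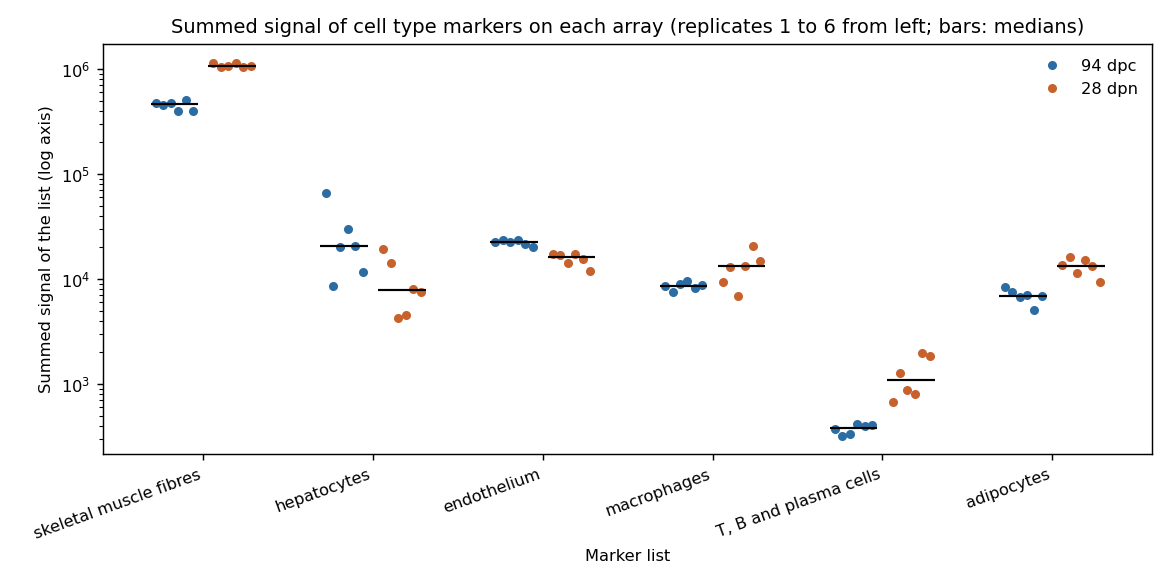
Summed signal of the measured genes of 6 cell type marker lists on each array of 94 dpc (blue, 6 arrays) and 28 dpn (orange, 6 arrays), on a log axis, with replicates from left to right and the median as a bar. The muscle fibre sum does not overlap between the stages, whereas the hepatocyte sum does, from 8600 to 65764 against 4293 to 19489.

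Over the whole transcriptome the stages differed widely. Of 23999 probe sets 9308 were called (38.8%), 4104 higher at 28 dpn (17.1%) and 5204 lower (21.7%), and the median of all probe sets differed by log2 0.02. At least log2 1 apart were 3960 probe sets (16.5%), and in 5493 (22.9%) the 6 animals of one stage all lay above the 6 of the other, 9.3% higher and 13.6% lower at 28 dpn. Of 6765 named genes 3291 were called (48.6%), 1516 higher (22.4%) and 1775 lower (26.2%), and their median difference was log2 -0.03. These shares are the background for every gene group below. The groups and their members were chosen with earlier results of these data known. A count above these shares is therefore a description of a group and not a test of it. Among named genes 14.1% were higher and 17.9% lower without overlap between animals, and 9.52% were called higher and 9.64% lower by at least log2 1. The split between directions depended on the scaling. The share of calls that were higher was 44.1% as deposited, 47.7% after quantile normalization and 50.1% once the median of every array was set equal. Scaled to the hybridisation controls it was 4.98%, with 751 probe sets higher and 14329 lower, and among named genes 317 (4.69%) were higher and 4461 (65.9%) lower.

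**Figure D2:**
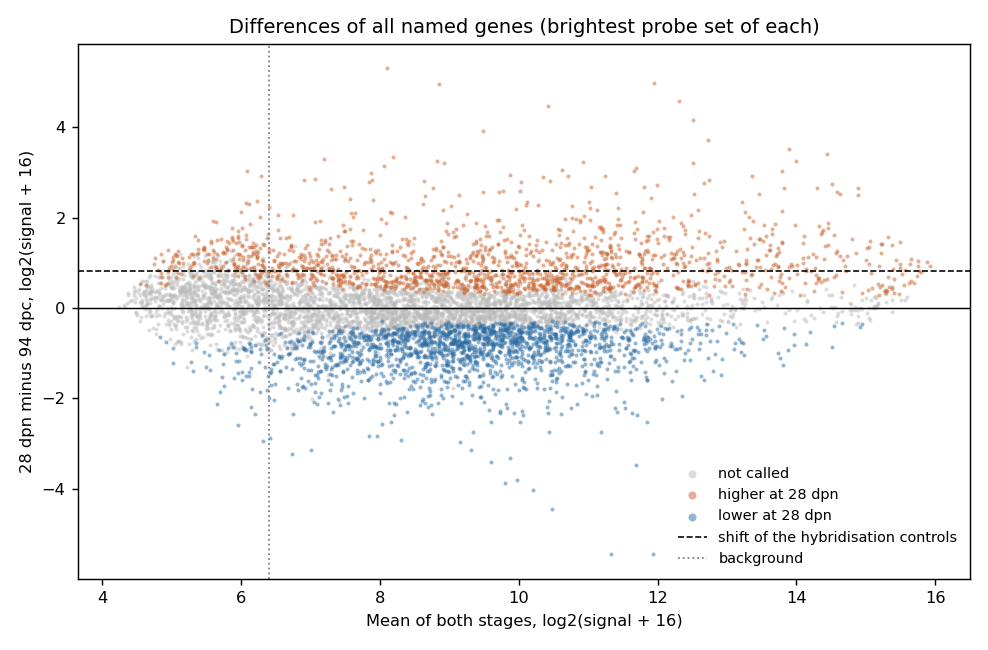
Difference between 28 dpn and 94 dpc against the mean of both stages, each on log2(signal + 16), for the 6765 named genes by their brightest probe set. Orange and blue points are the 1516 genes called higher and the 1775 called lower, and the dashed line marks the log2 0.83 by which the hybridisation controls differed.

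The largest rises joined genes of fuel and phosphate metabolism, a fast myosin and several genes of secreted proteins. The cysteine protease inhibitor CST6 had lowest, median and highest signals of 8.43, 23.9 and 83.5 at 94 dpc and 355, 1851 and 4774 at 28 dpn. Every animal of 28 dpn lay above every fetus, and the mean of 94 dpc was below background (means 33.5 to 2232; log2 5.31, SE 0.54, adjusted p = 8.8e-06). The uncharacterised gene LOC100153598, which lies next to ITIH4 in the RefSeq annotation, had signals of 518, 705 and 898 at 94 dpc and 15299, 22269 and 31437 at 28 dpn. It was 31.7-fold higher without overlap (log2 4.99, SE 0.20, adjusted p = 4.7e-09), although its other, dimmer probe set was not called. C4BPA, which encodes an inhibitor of the complement cascade, rose from a mean of 76.0 ± 44.1 to 3025 ± 1965 (log2 4.96, SE 0.42, adjusted p = 1.8e-06).

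The muscle form of fructose bisphosphatase, FBP2, which runs glycolysis in reverse at a key step, had signals of 821, 1024 and 1299.6 at 94 dpc and 18567, 24952 and 31849 at 28 dpn. The rise was 24.0-fold, with all 6 animals of 28 dpn far above the fetal range (log2 4.58, SE 0.16, adjusted p = 2.1e-09). PDK4 encodes a kinase that switches off the pyruvate dehydrogenase complex. Its signals of 181, 224 and 551 at 94 dpc and 3012, 6049.7 and 21313 at 28 dpn did not overlap, and the animals of 28 dpn spread widely among themselves (22.3-fold; log2 4.48, SE 0.43, adjusted p = 5.7e-06). The mitochondrial creatine kinase of muscle, CKMT2, had signals of 1054, 1384 and 1780.3 at 94 dpc and 18238, 24620 and 30118 at 28 dpn, a 17.9-fold rise (log2 4.17, SE 0.16, adjusted p = 4.7e-09). BPGM makes the regulator of haemoglobin's oxygen affinity in red cells and rose 15.0-fold, from 169 ± 18.6 to 2985 ± 1197 (SD, n = 6 and 6). ADSSL1, a muscle enzyme of the purine nucleotide cycle, rose 13.1-fold (log2 3.71), and both of its probe sets were called higher.

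PPP1R1A, an inhibitor of protein phosphatase 1, rose 11.4-fold from 4505 ± 693 to 51679 ± 7436 (SD, n = 6 and 6; log2 3.52, SE 0.14, adjusted p = 4.7e-09). The phosphodiesterase PDE4C, which breaks down cyclic AMP, went from 48.1 to 163 at 94 dpc to 735 to 1242 at 28 dpn (10.2-fold). TRNP1, a nuclear protein studied in neural progenitors, was below background on average at 94 dpc (means 33.3 to 457; log2 3.30, adjusted p = 5.5e-07). Of the 12 largest rises, that of MYH2 is described with the other contractile genes.

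The largest falls included developmental contractile genes, imprinted genes and matrix genes. PEG10, a paternally expressed gene derived from a retrotransposon, had lowest, median and highest signals of 15175, 16806 and 19986 at 94 dpc and 264, 385 and 498 at 28 dpn. No animal of 28 dpn came near the fetal range, and the fall was 43.9-fold (log2 -5.46, SE 0.16, adjusted p = 5.4e-10). Its other, dim probe sets were not called. The gene LOC396711, which stands beside the adult fast myosin heavy chain genes MYH1 and MYH2 in the order of genes in the RefSeq assembly and has no other name there, had signals of 20131, 25850 and 30305 at 94 dpc and 263, 587 and 1114 at 28 dpn. It was 43.3-fold lower (log2 -5.44, SE 0.30, adjusted p = 8.0e-08), and both of its probe sets were called lower.

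IGSF1, a membrane protein of the immunoglobulin superfamily, fell 16.3-fold, from 4775 ± 597 to 304 ± 164 (SD, n = 6 and 6; log2 -4.03, SE 0.26, adjusted p = 2.1e-07). The secreted phosphoprotein SPP1, or osteopontin, fell 14.0-fold, from 3858 ± 1098 to 274 ± 117. SPOCK3, a matrix proteoglycan, was below background in all animals of 28 dpn and therefore at least 3.84-fold lower. C8H4orf48 was at least 4.53-fold lower by its brightest probe set, but its other probe set was called higher. LOC100523107, which has no functional name, fell 7.82-fold. The remaining 5 of the 12 largest falls, MYL4, TNNT2, PLAGL1, POSTN and VCAN, are given with their groups.

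**Figure D3:**
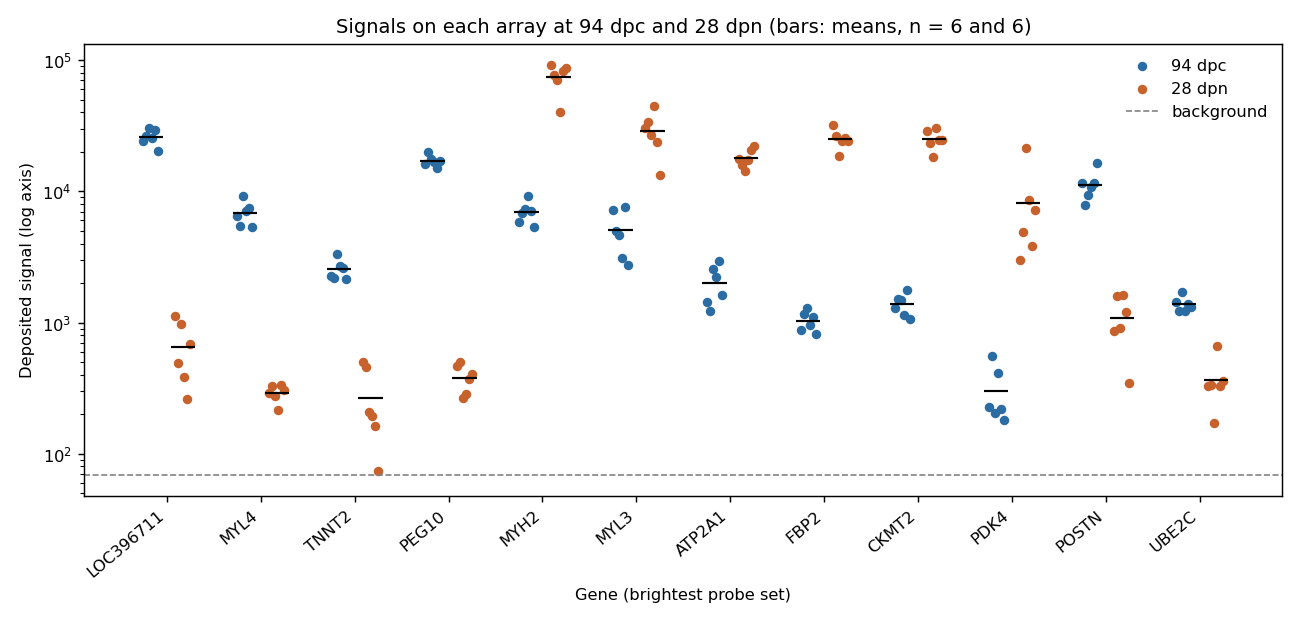
Deposited signal of 12 genes on each array of 94 dpc (blue) and 28 dpn (orange), on a log axis, with means as bars and background as a dashed line. In each of the 12 genes all animals of one stage lie above all animals of the other.

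The measured genes of a developmental contractile list did not move as a group. The list held embryonic isoforms and genes that fetal muscle shares with slow or immature fibres. Its members MYH3, MYH8, MYL6B, CHRNG and CHRND were not measured under those symbols, so the result does not cover the developmental myosin heavy chains MYH3 and MYH8. Of 11 measured genes 5 were called higher and 4 lower, against 22.4% and 26.2% of all named genes (median log2 -0.33). The embryonic and atrial light chain MYL4 had lowest, median and highest signals of 5319, 6759 and 9212 at 94 dpc and 217, 298 and 336 at 28 dpn. It fell 21.9-fold in muscle of 28 dpn, where the 6 values were tightly grouped (log2 -4.45, SE 0.16, adjusted p = 2.6e-09). TNNT2, the troponin T of heart and embryonic skeletal muscle, had signals of 2132, 2434 and 3335 at 94 dpc and 74.0, 200.2 and 502 at 28 dpn and fell 10.6-fold (log2 -3.41, SE 0.36, adjusted p = 1.1e-05). The adhesion molecule of immature and denervated fibres, NCAM1, fell from 436 ± 71.4 to 174 ± 38.8 by 2 of its 4 probe sets (log2 -1.26, adjusted p = 6.3e-05), and the tropomyosin TPM3 by its brightest probe set (log2 -0.70).

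Cardiac actin ACTC1, the main actin of early fetal muscle, averaged 34173 ± 3662 at 94 dpc and 30214 ± 14327 at 28 dpn (SD, n = 6 and 6) and was not called (log2 -0.33, adjusted p = 0.42). The receptor subunit CHRNA1 of the nerve-muscle junction was not called either (log2 -0.37). The genes of this list that rose were the slow troponins TNNT1, TNNI1 and TNNC1, the intermediate filament gene DES (log2 0.55) and MYH10, a nonmuscle myosin that lay below background in all fetuses and at most slightly above it at 28 dpn. Scaled to the hybridisation controls, 2 of the 11 were higher and 6 lower. With the 4 arrays rich in hepatocyte transcripts left out 2 were higher, and with 3 of them 5.

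The measured fast-twitch genes were higher at 28 dpn throughout. The list held 21 genes, of which 9 were measured, and the fast heavy chains MYH1 and MYH4 were not measured under those symbols. All 9 of 9 measured genes were called higher, each without overlap between animals, with a median of log2 1.02 against -0.03 for all named genes. The heavy chain of fast oxidative fibres, MYH2, had lowest, median and highest signals of 5358, 6965 and 9215 at 94 dpc and 40149, 79701 and 92460 at 28 dpn. Replicate 4 was the lowest animal of 28 dpn and still lay far above the fetuses (10.6-fold; log2 3.40, SE 0.21, adjusted p = 1.5e-07). The calcium pump of fast fibres, ATP2A1, had signals of 1225, 1913 and 2938 at 94 dpc and 14264, 17537 and 22088 at 28 dpn and rose 9.32-fold (log2 3.22, SE 0.22, adjusted p = 3.3e-07). The calcium release channel RYR1 rose 2.9-fold, from 6714 ± 1044 to 19473 ± 2860.1.

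The thin filament and light chain genes changed less. MYL1, a fast light chain, went from 45260 ± 5010 to 85861 ± 7872 (SD, n = 6 and 6; log2 0.93, SE 0.12, adjusted p = 5.2e-05). Its partner MYLPF differed by log2 0.81, the troponins TNNT3, TNNI2 and TNNC2 by log2 1.08, 0.92 and 0.87, and the tropomyosin TPM1 by log2 1.02, the last by 1 of 3 probe sets. The rises of these 6 genes were close to the shift of the hybridisation controls. After quantile normalization 5 of the 9 genes were called higher, with a median of log2 0.28, and after scaling to the hybridisation controls 3 were, namely MYH2, ATP2A1 and RYR1. Neither scaling called a member lower.

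Slow-twitch genes also rose in their majority. Of 10 measured genes 7 were called higher and 2 lower (median log2 0.95). The slow and cardiac light chain MYL3 had signals of 2729, 4822 and 7652 at 94 dpc and 13204, 28801 and 44801 at 28 dpn. Its 5.74-fold rise came with a wide spread among animals of 28 dpn (log2 2.52, SE 0.32, adjusted p = 4.8e-05). The slow heavy chain MYH7 rose 2.34-fold, from 25318 ± 5024 to 59367 ± 11791 (SD, n = 6 and 6; log2 1.23, SE 0.19, adjusted p = 2.0e-04). The troponins TNNT1, TNNI1 and TNNC1 rose by log2 1.34, 0.92 and 0.92, the light chain MYL2 by log2 0.97 and the slow calcium pump ATP2A2 by log2 1.26, with 1 of the 4 probe sets of ATP2A2 called lower.

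The slow calsequestrin CASQ2, a calcium store of the reticulum, was lower (log2 -0.81, adjusted p = 0.041), a call that was lost when some single arrays were left out, and TPM3 was lower in 2 of its 3 probe sets and higher in the third. The myosin-binding protein MYBPC1 missed the threshold (log2 0.50, adjusted p = 0.062). Scaled to the hybridisation controls, 3 of these 10 genes were higher and 2 lower.

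Genes of the Z-disc, M-band and the titin and nebulin filaments, which anchor the contractile array, rose in 14 of 19 measured members and fell in 0 (median log2 1.06). XIRP2, an actin-binding protein of the fibre ends, had signals of 1789, 2385 and 3737 at 94 dpc and 14029, 17388 and 18784 at 28 dpn. It rose 6.76-fold without overlap (log2 2.76, SE 0.18, adjusted p = 2.2e-07). The muscle protease CAPN3 rose 6.39-fold, the thin filament ruler NEB 3.66-fold and the Z-disc adaptor PDLIM3 3.16-fold. The other probe set of CAPN3 was not called (log2 0.49). NEB was very even within each stage, from 11858 ± 1984 to 43007 ± 2588 (SD, n = 6 and 6). The stretch-responsive SMPX (log2 0.01) and the thin filament nucleator LMOD3 (log2 0.04) were not called. Scaled to the hybridisation controls, 8 members were higher and 3 lower. The summed signal of the 20 muscle fibre markers, of which 18 were called higher and 1 lower, was 397440 to 506450 at 94 dpc and 1038500 to 1151100 at 28 dpn. The highest signal on an array moved in the same direction, and its part in these groups was not tested.

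Regulators of muscle precursor cells were lower at 28 dpn. Of 15 measured genes 8 were called lower and 2 higher, against 26.2% and 22.4% of all named genes (median log2 -0.63). On the hybridisation control scale 12 were lower and 0 higher. MYF5, which commits cells to the muscle lineage, had signals of 389, 578 and 1069 at 94 dpc and 86.7, 159 and 208 at 28 dpn. The stages did not overlap, and the fall was 4.0-fold (log2 -2.0, SE 0.25, adjusted p = 4.6e-05). CALCR, the calcitonin receptor that marks quiescent satellite cells, fell 2.99-fold, from 727 ± 83.7 to 233 ± 37.4 (SD, n = 6 and 6). Its other, dimmer probe set was not called (log2 -0.56). The myostatin antagonist FST fell 2.97-fold and the determination factor MYOD1 2.28-fold, the latter by 1 of its 2 probe sets. The activin receptor ACVR2B, through which myostatin signals, rose (log2 0.89, adjusted p = 0.002). PAX3 was called higher but lay below background in all fetuses and near it at 28 dpn. MEF2A and MEF2D, transcription factors of differentiated fibres, were not called (log2 0.04 and 0.07). Of the nerve-muscle junction list only CHRNA1 and NCAM1 were measured, with the values given above.

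Genes of phosphocreatine, the rapid energy store of muscle, rose in 4 of 6 measured members and fell in 0. GAMT, which completes creatine synthesis, had signals of 437, 612 and 714 at 94 dpc and 2434, 4979 and 6584 at 28 dpn. All animals of 28 dpn exceeded all fetuses (7.6-fold; log2 2.93, SE 0.22, adjusted p = 6.8e-07). The cytosolic muscle creatine kinase CKM rose 2.06-fold from 38685 ± 3829 to 79342 ± 4741, and the creatine transporter SLC6A8 2.0-fold. The brain isoform CKB, which precedes CKM in development, differed by log2 -0.35 and missed the threshold (adjusted p = 0.067), as did CKMT1A, a mitochondrial isoform of other tissues (adjusted p = 0.076). On the hybridisation control scale CKMT2 and GAMT stayed higher and 1 member was lower.

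Of 18 measured glycolytic genes 10 were called higher and 3 lower (median log2 0.94). The muscle phosphofructokinase PFKM, the main control point of the pathway, had signals of 4250.3, 5226 and 6191 at 94 dpc and 46617, 49077 and 56099 at 28 dpn. It rose 9.57-fold (log2 3.26, SE 0.12, adjusted p = 3.6e-09). The liver isoform PFKL moved the other way, from 860.1 ± 222 to 446 ± 97.2 (SD, n = 6 and 6; log2 -0.91, SE 0.19, adjusted p = 0.0022). GPI rose 8.2-fold, TPI1 6.35-fold and GPD1, which links glycolysis to the glycerol phosphate shuttle, 7.17-fold. The housekeeping hexokinase HK1 (log2 -0.84) and the fetal glucose transporter SLC2A1 (log2 -0.89) fell. The enolase ENO1 and the lactate dehydrogenase LDHB were not called (adjusted p = 0.15 and 0.25). Scaled to the hybridisation controls, 8 members were higher and 5 lower.

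Genes that store and mobilise glycogen, the reserve that fibres draw on in contraction, rose in 9 of 10 measured members, with a median of log2 1.67. The muscle glycogen phosphorylase PYGM had signals of 7358, 8832 and 11836 at 94 dpc and 56787, 60630 and 65198 at 28 dpn. Its rise was 6.68-fold by the brightest probe set (log2 2.74, SE 0.14, adjusted p = 2.8e-08), and all 4 of its probe sets were called higher. The other 3 rose more, by log2 3.43, 5.38 and 5.48, the last 2 by more than any gene among the 12 largest rises, which were ranked by the brightest probe set. The subunit PHKB of the kinase that activates phosphorylase rose 6.42-fold, the primer GYG1 5.77-fold and PGM1, which links glycogen to glycolysis, 5.79-fold. The synthase GYS1 rose 3.29-fold, UGP2 3.09-fold, the glycogen-binding protein STBD1 2.0-fold and the liver phosphorylase PYGL by log2 0.80. PHKG1 was called higher from a mean below background (50.4 to 118). PRKAG3, a subunit of AMP-activated kinase known for its effect on pig muscle glycogen, was not called (log2 0.30, adjusted p = 0.36). The count held under quantile normalization, with 9 higher, and was 6 on the hybridisation control scale, with 0 lower in both.

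**Figure D4:**
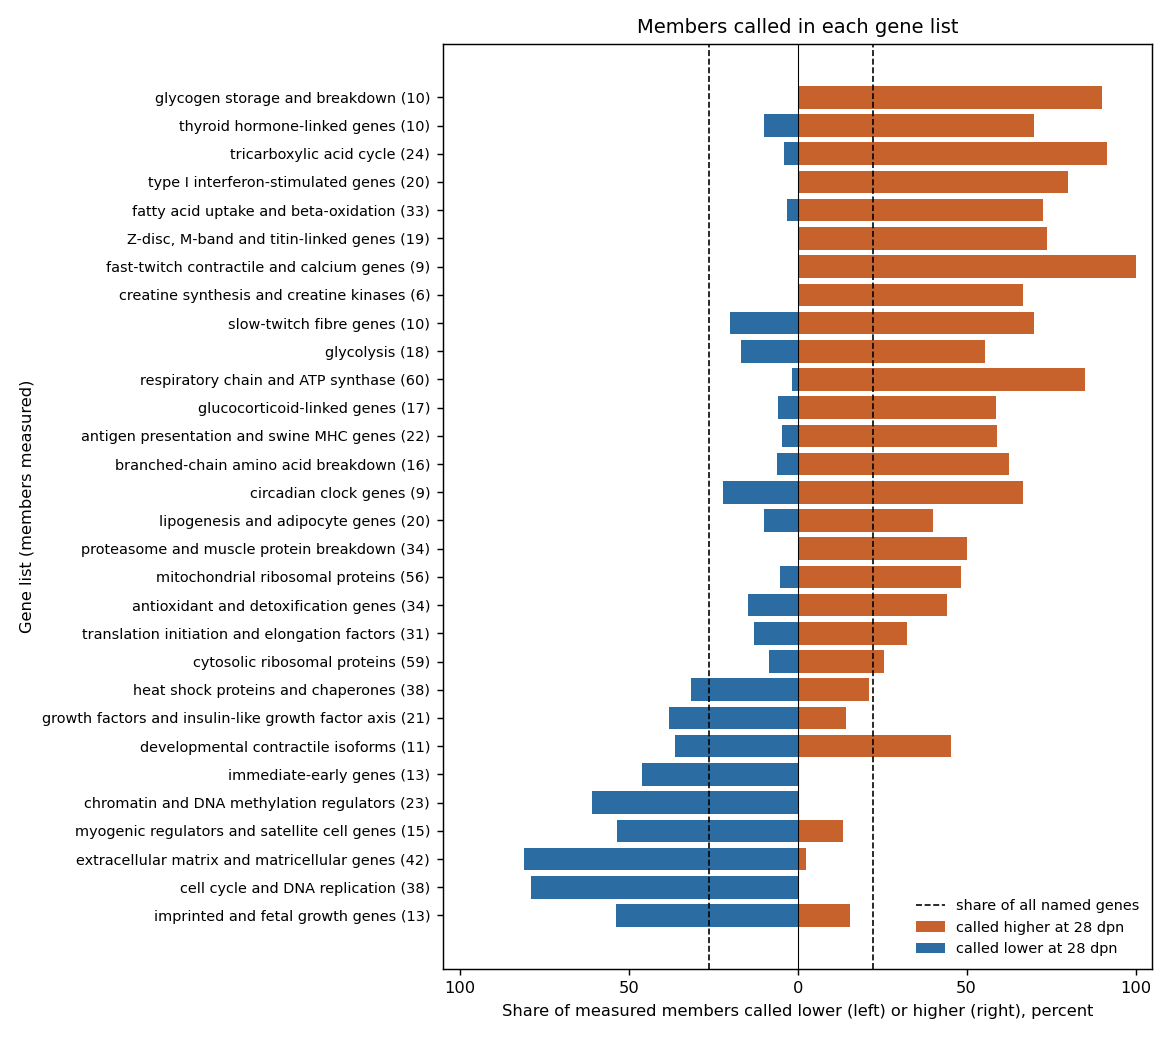
Share of measured members called higher (orange, to the right) or lower (blue, to the left) at 28 dpn in each gene list with at least 6 measured members, in order of median difference. Dashed lines mark the 22.4% and 26.2% of all named genes called higher and lower, and the number of measured members stands in parentheses.

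Genes of the tricarboxylic acid cycle and of the pyruvate dehydrogenase complex rose nearly together. Of 24 measured genes 22 were called higher and 1 lower (median log2 1.34), and 21 were higher without overlap. The succinate-CoA ligase subunit SUCLA2 had signals of 761, 865 and 1017 at 94 dpc and 5950, 6709 and 7575 at 28 dpn. This 7.62-fold rise was among the most even between animals (log2 2.93, SE 0.12, adjusted p = 4.7e-09). PDHA1, the entry enzyme for pyruvate, rose 3.83-fold and the cytosolic malate dehydrogenase MDH1 3.77-fold. The exceptions were IDH3B, which was not called (log2 0.08), and ACO1, the cytosolic aconitase that also senses iron. ACO1 was lower by its brightest probe set (log2 -0.48, adjusted p = 0.019), whereas its other probe sets were not called (log2 0.38 and 0.66). With the mean of all probe sets of a gene, 22 members were higher and 0 lower. Quantile normalization left 22 higher and 1 lower, and scaling to the hybridisation controls 15 and 2.

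Subunits of the respiratory chain and ATP synthase, which turn the electrons of that cycle into ATP, were called higher in 51 of 60 measured genes and lower in 1, with a median of log2 0.92. By complex, the higher calls were 27 of 33 in complex I, 4 of 4 in complex II, 2 of 2 in complex III, 4 of 6 in complex IV and 13 of 14 in ATP synthase. Within cytochrome oxidase, the muscle isoform of one subunit rose and the general isoform of another fell. COX7A1, the heart and muscle isoform, had signals of 9422, 12929 and 14663 at 94 dpc and 36168, 40342 and 50492 at 28 dpn and rose 3.43-fold (log2 1.78, SE 0.15, adjusted p = 1.5e-06). COX6A1, the isoform of other tissues, had signals of 6296, 7472 and 9330.2 at 94 dpc and 3292, 3568 and 4850.5 at 28 dpn and fell 2.01-fold without overlap (log2 -1.01, SE 0.14, adjusted p = 1.1e-04).

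Cytochrome c, CYCS, rose 3.71-fold from 2872 ± 1084 to 10198 ± 2407 (SD, n = 6 and 6), and the succinate dehydrogenase subunit SDHC 3.39-fold. ATP5I, a small subunit of ATP synthase, differed by log2 2.20 with an SE of 0.53, the signals of 28 dpn ranging from 749 to 6015. NDUFA11 and ATP5G2 were not called (log2 0.33 and 0.08). The median of this list was close to the shift of the hybridisation controls, log2 0.83. After scaling to them 20 members were higher and 10 lower, and after quantile normalization 34 and 4.

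Genes of fatty acid uptake and beta-oxidation were called higher in 24 of 33 measured members and lower in 1 (median log2 1.07). UCP3, the uncoupling protein of muscle mitochondria, had signals of 30.6, 72.8 and 122 at 94 dpc and 512, 633 and 850.0 at 28 dpn. Its 7.99-fold rise set it apart from UCP2, an isoform of many tissues, which was lower with overlap (169 to 74.4; log2 -1.15, adjusted p = 0.015). ANGPTL4, an inhibitor of lipoprotein lipase, rose 6.34-fold, PNPLA2, which releases fatty acids from stored fat, 3.78-fold, and the short-chain dehydrogenase ACADS 3.46-fold. The hydratase ECHS1 (log2 0.03) and the regulator of mitochondrial content PPARGC1A (log2 0.26, adjusted p = 0.2) were not called. After scaling to the hybridisation controls 10 members were higher and 7 lower.

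Genes that break down branched-chain amino acids, a fuel largely used by muscle, rose in 10 of 16 measured members and fell in 1 (median log2 0.63), but 3 were higher and 5 lower on the hybridisation control scale. The transaminases of the first step moved in opposite directions. The mitochondrial transaminase BCAT2 had signals of 180.5, 202 and 289.5 at 94 dpc and 835, 954 and 1357 at 28 dpn, a 4.5-fold rise (log2 2.17, SE 0.16, adjusted p = 5.4e-07). The cytosolic BCAT1 had signals of 229.7, 343 and 433 at 94 dpc and 23.4, 90.9 and 119 at 28 dpn, and fell 3.92-fold, by both of its probe sets (log2 -1.97, SE 0.27, adjusted p = 9.2e-05). Of the dehydrogenase that follows, the subunits BCKDHB and DLD rose (log2 1.22 and 1.58), as did BCKDK, the kinase that switches it off (log2 1.29). IVD and ACAD8 were not called by their brightest probe sets (adjusted p = 0.45 and 0.13), although each had another probe set called higher.

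**Figure D5:**
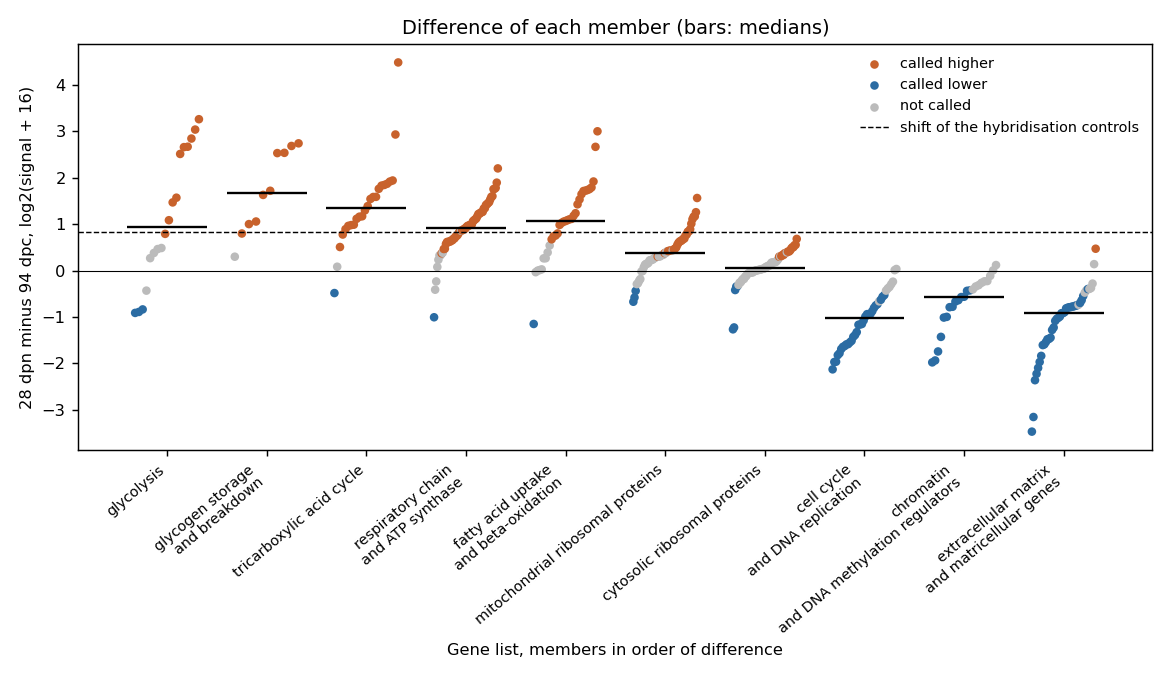
Difference between 28 dpn and 94 dpc on log2(signal + 16) for each measured member of 10 gene lists, in order within each list, with the median as a bar. Members of the tricarboxylic acid cycle centre on log2 1.34 and cytosolic ribosomal proteins on log2 0.05, and the dashed line marks the log2 0.83 of the hybridisation controls.

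Mitochondrial ribosomal proteins, which translate the genome of the mitochondrion, were called higher in 27 of 56 measured genes and lower in 3 (median log2 0.38). These shifts were small, and 2 were higher and 35 lower on the hybridisation control scale. With the 4 arrays rich in hepatocyte transcripts left out 12 were higher, and with 3 of them 16. MRPL37 rose 2.95-fold from 2743 ± 636 to 8021 ± 1249 (SD, n = 6 and 6), and MRPS35, MRPS25 and MRPL51 by log2 1.26, 1.17 and 1.16. The members called lower were MRPL36, MRPL10 and MRPL14 (log2 -0.67, -0.58 and -0.44), the last a call lost when some single arrays were left out. MRPS21 and MRPL17 were not called (log2 0.22 and -0.01).

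Cytosolic ribosomal proteins had no direction that held across scalings. As deposited 15 of 59 were called higher and 5 lower, against 22.4% and 26.2% of all named genes (median log2 0.05). After quantile normalization 0 were higher and 42 lower, and after scaling to the hybridisation controls 0 and 56. With the 4 arrays rich in hepatocyte transcripts left out 2 were higher, and with 3 of them 7. Within the list the members differed from one another. RPL3, of the large subunit, had signals of 20815, 22098 and 23601 at 94 dpc and 7703, 8897 and 11215 at 28 dpn. It fell 2.4-fold without overlap (log2 -1.27, SE 0.13, adjusted p = 7.5e-06). RPL37 fell (log2 -1.22), whereas RPLP1 and RPS2 were called higher (log2 0.68 and 0.50), with the other probe set of RPLP1 called lower. Ribosomal protein genes have many processed copies, and probe sets may read more than 1 of them.

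Translation factors were called higher in 10 and lower in 4 of 31 measured genes, against 22.4% and 26.2% of all named genes. The counts were 6 and 7 after quantile normalization and 1 and 23 on the hybridisation control scale. Leaving out the 4 arrays rich in hepatocyte transcripts gave 4 higher and 3 lower, and with 3 of them 8 and 3. EIF1, which selects the start codon, rose 2.66-fold from 23753 ± 2960 to 62921 ± 4995 (SD, n = 6 and 6; log2 1.41, SE 0.12, adjusted p = 2.3e-06), by both of its probe sets. EIF6, which keeps ribosomal subunits apart, fell 1.75-fold from 2232 ± 429.9 to 1255 ± 129.7 (log2 -0.81, SE 0.15, adjusted p = 8.2e-04). Of the proteasome, the protease that clears tagged proteins, 16 of 32 subunits were called higher and 0 lower, led by PSMA3 (log2 1.2). On the hybridisation control scale 0 were higher and 19 lower, so that the direction of this family depended on the scaling. With the 4 arrays rich in hepatocyte transcripts left out 9 of the 34 genes of the whole list were higher, with 3 of them 12, and with all arrays 17. PSMA7 and PSMB5 were not called (log2 0.14 and 0.20).

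Of 38 measured chaperone genes 8 were called higher (21.1%) and 12 lower (31.6%), near the 22.4% and 26.2% of all named genes. Of the small heat shock proteins, which protect the contractile filaments, 5 of 7 were higher and 1 lower, but 2 and 2 on the hybridisation control scale. HSPB3 had signals of 309, 399 and 580.3 at 94 dpc and 1107, 1338 and 1430.5 at 28 dpn and rose 3.01-fold (log2 1.59, SE 0.16, adjusted p = 6.3e-06). HSPB8 and HSPB7 rose by log2 1.44 and 1.37. Chaperones of the endoplasmic reticulum, where secreted proteins fold, were lower in 8 of 10 genes and higher in 0, and 9 were lower on the scale of those controls. The collagen chaperone FKBP10 had signals of 1662, 2928 and 3966 at 94 dpc and 645, 751 and 1012 at 28 dpn, and fell 3.61-fold (log2 -1.85, SE 0.19, adjusted p = 1.0e-05).

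The disulphide isomerases PDIA6 and PDIA4 fell (log2 -1.39 and -1.26), as did calnexin, CANX (log2 -0.93). The dimmer probe sets of PDIA4 were not called. Of the cytosolic chaperonin 1 of 6 subunits was lower and 0 higher. HSPA8 was higher by its brightest probe set (log2 0.96) and lower by its other 3. HSP90AA1 was not called by its brightest probe set but higher by 3 others, and HSPE1 was not called (adjusted p = 0.082 and 0.17). With scaling to the hybridisation controls 2 of the whole list were higher and 27 lower.

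Antioxidant and detoxification genes were called higher in 15 and lower in 5 of 34 measured members (6 and 17 on the hybridisation control scale). The mitochondrial superoxide dismutase SOD2 had signals of 811, 1181 and 1267 at 94 dpc and 7363, 10203 and 11930 at 28 dpn. It rose 8.59-fold, with no overlap (log2 3.10, SE 0.15, adjusted p = 2.6e-08). The mitochondrial peroxiredoxin PRDX3 rose 4.06-fold and the quinone reductase NQO1 7.68-fold, from 326 ± 40.8 to 2675 ± 712 (SD, n = 6 and 6). The extracellular dismutase SOD3 was below background in all fetuses and at least 2.01-fold higher at 28 dpn. Falls were seen in the glutathione transferase GSTM3 (3.87-fold), the aldehyde reductase AKR1A1 (2.57-fold) and the haem oxygenase HMOX1 (log2 -0.78). The metallothionein MT1A was lower with wide overlap (303 to 61.9; adjusted p = 0.032), a call lost when some single arrays were left out. GPX4 and PRDX4 were not called (log2 0.34 and -0.14).

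Cell cycle genes were lower at 28 dpn. Of 38 measured genes of replication and mitosis 30 were called lower and 0 higher, against 26.2% and 22.4% of all named genes, and 28 did not overlap between the stages (median log2 -1.03). UBE2C, which helps end mitosis, had signals of 1218, 1348 and 1714 at 94 dpc and 172, 333 and 657 at 28 dpn. The fall was 3.91-fold (log2 -1.97, SE 0.24, adjusted p = 3.2e-05), by 1 of its 2 probe sets. RACGAP1, a gene of the dividing cell's midbody, fell 3.9-fold from 1358 ± 129 to 359.8 ± 142 (SD, n = 6 and 6). The cyclin CCND2 fell 4.37-fold and the kinase partner CKS2 3.53-fold. Of the MCM helicase, which opens DNA for replication, 3 of 4 subunits were lower. The tubulin TUBB (log2 0.01) and the brightest probe set of UBE2T (log2 -0.29) were not called. The count of lower genes was 28 after quantile normalization, 30 with centring on the median and 37 on the hybridisation control scale, with 0 higher in each.

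Of chromatin and DNA methylation regulators 14 of 23 were lower and 0 higher (median log2 -0.56). DNMT1, which copies DNA methylation at replication, had signals of 944, 1318 and 1547 at 94 dpc and 258, 305 and 402 at 28 dpn. It fell 3.83-fold by its brightest probe set (log2 -1.94, SE 0.16, adjusted p = 1.6e-06), and 2 of its 4 probe sets were called lower. EZH2, the methyltransferase of the Polycomb complex, fell 3.34-fold from 306 ± 36.9 to 83.6 ± 31.3. The chromatin proteins HMGB2 and HMGN1 fell (log2 -1.98 and -1.43). HMGB1 was not called by its brightest probe set (log2 -0.34) and was higher by 2 others, and SET was not called (log2 -0.23). With the 4 arrays rich in hepatocyte transcripts left out 8 members were lower, and with 3 of them 10.

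Extracellular matrix genes were lower in 34 of 42 measured members and higher in 1, with a median of log2 -0.91. POSTN, periostin, a matricellular protein of growing connective tissue, had lowest, median and highest signals of 7839, 11114 and 16402 at 94 dpc and 345, 1056 and 1635 at 28 dpn. The stages were far apart and the animals of 28 dpn spread widely (11.1-fold; log2 -3.47, SE 0.33, adjusted p = 5.3e-06). The large proteoglycan VCAN, versican, of the loose fetal matrix had signals of 1705, 1774 and 2217 at 94 dpc and 145, 201 and 261 at 28 dpn and fell 8.9-fold (log2 -3.15, SE 0.15, adjusted p = 2.0e-08), by 3 of its 5 probe sets. THBS2 and ASPN, which bind collagen or growth factors in the matrix, fell 5.14-fold and 4.67-fold.

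Of the collagens 5 of 8 were lower and 0 higher, of the laminins and nidogens of the basement membrane 4 of 4 were lower, and of the small leucine-rich proteoglycans 4 of 5. COL6A3 and the brightest probe set of COL1A2 were not called (log2 -0.28 and -0.47), and the other probe set of COL1A2 was lower. SPARC, which binds collagen and calcium, was the member called higher (log2 0.47, adjusted p = 0.0058), by 1 of 2 probe sets, and it turned lower on the hybridisation control scale. Quantile normalization gave 33 lower and 0 higher. The fibroblast markers, of which 7 of 13 were called lower and 1 higher, had a summed signal of 43701 to 59479 at 94 dpc and of 31658 to 50115 at 28 dpn. Their part in the matrix result was not tested.

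Growth factor genes fell in 8 and rose in 3 of 21 measured members, against 26.2% and 22.4% of all named genes (median log2 -0.33). The heparin-binding factors PTN and MDK, a pair known from fetal tissues, were the largest falls of the list. PTN had signals of 617, 823 and 1452 at 94 dpc and 57.1, 89.6 and 197 at 28 dpn and fell 7.53-fold (log2 -2.91, SE 0.29, adjusted p = 6.3e-06), by 1 of 2 probe sets. MDK had signals of 3338, 3592 and 3724 at 94 dpc and 195, 629.5 and 703 at 28 dpn and fell 6.69-fold (log2 -2.74, SE 0.26, adjusted p = 5.0e-06), by both. IGF2, the main insulin-like growth factor of the fetus, fell 3.89-fold from 10399 ± 1675 to 3116 ± 2069.8 by its brightest probe set (SD, n = 6 and 6; log2 -1.96, SE 0.34, adjusted p = 6.1e-04), and of its 13 probe sets 6 were called lower and 1 higher. TGFB2 fell 3.48-fold, by all 4 of its probe sets.

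The growth hormone receptor GHR was higher with overlap (log2 0.73, adjusted p = 0.017), and the vessel growth factor VEGFA rose 2.18-fold, from 2871 ± 187 to 6281 ± 592. BMP4 was called higher by log2 0.43. IGF1 itself (log2 -0.11, adjusted p = 0.63) and the binding protein IGFBP6 (log2 -0.33) were not called. Scaled to the hybridisation controls, 0 members were higher and 16 lower.

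Imprinted genes and other fetal growth genes were lower in 7 of 13 measured members and higher in 2, with a median of log2 -1.58 (10 and 1 on the hybridisation control scale). Besides PEG10 and IGF2, the zinc finger gene PLAGL1, a regulator of an imprinted network, had signals of 2489, 2902 and 3475 at 94 dpc and 204, 253 and 553 at 28 dpn. It fell 10.1-fold (log2 -3.33, SE 0.22, adjusted p = 3.1e-07), with all 3 probe sets lower. The maternally expressed noncoding RNA MEG3 fell 6.67-fold from 6031 ± 829.9 to 885 ± 70.2 (SD, n = 6 and 6; log2 -2.74, SE 0.13, adjusted p = 1.4e-08), and PHLDA2, known for restraining placental growth, 4.56-fold. GRB10, an imprinted adaptor that damps insulin signalling, went the other way, with signals of 937, 1027 and 1160 at 94 dpc and 3589.7, 4162 and 9469.6 at 28 dpn. Its rise was 4.48-fold, by both of its probe sets (log2 2.16, SE 0.21, adjusted p = 6.9e-06). The thyroid hormone deiodinase DIO3 was called higher at a low level (76.9 to 181). NNAT and SNRPN were not called (log2 -0.32 and 0.07).

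Genes linked to glucocorticoid action were called higher in 10 and lower in 1 of 17 measured members (median log2 0.83). FKBP5, a chaperone partner of the receptor and a common readout of the hormone, had signals of 70.5, 90.7 and 107 at 94 dpc and 275, 473 and 2094 at 28 dpn. The fetal values were tight and those of 28 dpn broad (5.25-fold; log2 2.39, SE 0.40, adjusted p = 4.3e-04), and its other probe set was not called. The transcription factor CEBPB rose 3.93-fold from 1395 ± 233 to 5641 ± 1548 (SD, n = 6 and 6). DUSP1, a phosphatase, was not called (adjusted p = 0.91). The glutamine synthetase GLUL was not called by its brightest probe set (adjusted p = 0.68), but its dimmer probe sets were called higher (log2 1.03 and 1.35). The hybridisation control scale gave 4 higher and 5 lower. PDK4 and ANGPTL4 are counted here as well as in the lists of fuel metabolism.

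Of genes linked to thyroid hormone 7 of 10 were called higher and 1 lower. ATP2A1, UCP3, MYH7 and DIO3 are described above. HR, a corepressor induced by the hormone, rose 3.93-fold from 116 ± 22.4 to 515 ± 150.0 (SD, n = 6 and 6) by 1 of 3 probe sets. KLF9 rose 2.74-fold and the malic enzyme ME1 3.3-fold, and the other probe set of KLF9 was not called. The receptor gene THRA was lower by its brightest probe set (log2 -0.80) and higher by its other, and THRB and DIO2 lay below background on average at both stages. Scaled to those controls, 3 were higher and 1 lower.

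Clock genes rose in 6 and fell in 2 of 9 measured members, and the labels give no hour of sampling. USP2 rose 2.2-fold from 1133 ± 299.7 to 2479 ± 439.7 (SD, n = 6 and 6), and RORA, NAMPT, BHLHE40, PER1 and CRY2 were called higher by log2 1.07, 0.95, 0.82, 0.62 and 0.43. The other probe sets of BHLHE40 and PER1 were not called. ARNTL, the activator of the loop, and the repressor NFIL3 were lower (log2 -0.68 and -0.58), and the output gene DBP was not called (log2 -0.09). On the hybridisation control scale 0 were higher and 4 lower. With the 4 arrays rich in hepatocyte transcripts left out 3 were higher and 1 lower, and with 3 of them 5 and 2. Immediate-early genes, which respond within minutes to a stimulus or to the handling of tissue, were lower in 6 and higher in 0 of 13. EGR1 fell 2.44-fold from 1330.4 ± 703 to 527 ± 244, with overlap, and MYC 2.11-fold. The dimmer probe sets of EGR1 were not called. FOSL2 and CYR61 fell as well (log2 -1.48 and -1.08), and JUN was not called (log2 -0.26). With the 4 arrays rich in hepatocyte transcripts left out 3 were lower, and with 3 of them 5.

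Some genes of fat cells were higher at 28 dpn. Of 20 genes of lipogenesis and adipocytes 8 were called higher and 2 lower (2 and 8 on the hybridisation control scale). With the 4 arrays rich in hepatocyte transcripts left out 4 were higher and 3 lower, and with 3 of them 6 and 3. CFD, adipsin, had signals of 1462, 1818 and 2046 at 94 dpc and 4614, 5617 and 7197 at 28 dpn and rose 3.18-fold (log2 1.67, SE 0.14, adjusted p = 1.7e-06). The adipokine ADIPOQ rose from a mean below background (58.0 to 272; adjusted p = 6.4e-04). The fatty acid synthase FASN, in contrast, fell 2.57-fold from 766 ± 111 to 306 ± 122 by 1 of its 4 probe sets. The fatty acid binding protein FABP4 and the elongase ELOVL6 were not called (log2 0.42 and -0.52). Of 8 adipocyte markers 4 were called higher and 1 lower, and their summed signal was 5115 to 8349 at 94 dpc and 9282 to 16358 at 28 dpn.

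Immune genes were higher at 28 dpn, with a wide spread between animals. Of antigen presentation genes 13 of 22 were called higher and 1 lower (median log2 0.70), and 4 were higher and 6 lower on the hybridisation control scale. Called higher were 4 of 6 of class I and 6 of 9 of class II. SLA-2, a class I gene of the swine major histocompatibility complex, had signals of 2161, 2762 and 4417 at 94 dpc and 6741, 13257 and 21468 at 28 dpn. It rose 4.47-fold without overlap (log2 2.16, SE 0.26, adjusted p = 3.0e-05), although the genes of this family are similar in sequence and a probe set may read several. The class II gene SLA-DRA rose 2.99-fold and the immunoproteasome subunit PSMB8 2.89-fold. The brightest probe set of B2M, the light chain of class I, was not called (log2 -0.01), and of its 9 probe sets 6 were called higher and 1 lower.

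Interferon-stimulated genes were called higher in 16 of 20 measured members and lower in 0 (median log2 1.15), and 5 did so without overlap. GBP1, a guanylate-binding protein, had signals of 43.2, 75.5 and 100 at 94 dpc and 295, 909 and 2168 at 28 dpn. All animals of 28 dpn exceeded all fetuses (8.79-fold; log2 3.14, SE 0.44, adjusted p = 1.1e-04). IFIT1 had signals of 48.4, 89.2 and 111 at 94 dpc and 288, 413 and 572 at 28 dpn and rose 4.32-fold (log2 2.11, SE 0.22, adjusted p = 1.2e-05), by all 3 of its probe sets. The antiviral genes RSAD2 and MX1 were higher with overlap between animals (log2 2.64 and 2.11; SE 0.50 and 0.52). USP18 and IRF9 were not called (adjusted p = 0.077 and 0.12). After scaling to the hybridisation controls 5 members were higher and 2 lower.

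Of 10 markers of lymphocytes 7 were called higher and 0 lower, and their summed signal was 323 to 414 at 94 dpc and 673 to 1995 at 28 dpn. With scaling to the hybridisation controls 1 was higher and 0 lower. With the 4 arrays rich in hepatocyte transcripts left out 4 were higher, and with 3 of them 5. At 94 dpc 6 of the 10 lay below background on every array. The T cell chemokine CCL5 went from a mean below background to above it (45.6 to 435), and the receptor chain CD3D was at least 1.62-fold higher. Macrophage markers were higher in 7 and lower in 1 of 18, and their sum overlapped, from 7548 to 9589 at 94 dpc and from 6915 to 20874 at 28 dpn. With scaling to the hybridisation controls 0 of the macrophage markers were higher and 6 lower. With the 4 arrays rich in hepatocyte transcripts left out 4 were higher, and with 3 of them 5. The complement subunit C1QC was higher (log2 1.29, adjusted p = 0.0044) and the mannose receptor MRC1 lower (log2 -0.84). The part of these cells in the antigen presentation and interferon results was not tested.

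Of 18 endothelial markers 7 were called lower and 1 higher, and their sum was 20425 to 23650 at 94 dpc and 12060 to 17507 at 28 dpn, without overlap. After scaling to the controls 17 were lower and 0 higher. The junction cadherin of endothelium, CDH5, had signals of 4016, 4818 and 5134 at 94 dpc and 1756, 2268 and 2604 at 28 dpn. It fell 2.14-fold (log2 -1.10, SE 0.14, adjusted p = 4.4e-05), by 1 of its 2 probe sets. RAMP2 and CD34 fell (log2 -0.64 and -0.74), whereas the clotting factor VWF was higher (log2 0.72, adjusted p = 0.0091). Smooth muscle and pericyte markers were lower in 5 and higher in 2 of 10 (8 and 0 on the hybridisation control scale). Their sum overlapped widely, from 41306 to 56872 at 94 dpc (median 50604) and from 40249 to 57526 at 28 dpn (median 50795). The pericyte channel subunit KCNJ8 fell 2.59-fold and MCAM 2.49-fold, and CNN1 rose 2.44-fold with overlap.

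Of 7 Schwann cell markers 1 was called higher (14.3%) and 2 lower (28.6%), near the 22.4% and 26.2% of all named genes. The higher was CRYAB, which muscle fibres express as well, and the lower were NCAM1 and S100B (log2 -0.52). On the hybridisation control scale 0 were higher and 4 lower. Of 7 erythroid markers 1 was called higher and 1 lower (14.3% each), below the shares of all named genes. HBB was lower (log2 -0.80, adjusted p = 0.0024) and TFRC was called higher at a level near background. The erythroid sum overlapped, from 1450 to 2238 at 94 dpc and from 1248 to 3542 at 28 dpn. On the hybridisation control scale 0 erythroid markers were higher and 4 lower. Of 9 exocrine pancreas markers 1 was called higher, CELA2A (log2 1.05), and 1 lower, CPA1 (log2 -2.15), each with overlap and lost when some single arrays were left out, and the sum overlapped between the stages, from 2999.6 to 13828 and from 6798 to 10656. Of 10 cardiomyocyte markers 3 were higher and 2 lower, the latter MYL4 and TNNT2, near the shares of all named genes. On the hybridisation control scale 0 were higher and 5 lower. SLN, a regulator of the calcium pump that skeletal muscle shares with atrium, rose 1.97-fold from 32865 ± 2279 to 64885 ± 3872 (SD, n = 6 and 6).

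Levels at the other stages of the series, 1 and 188 days after birth (1 dpn and 188 dpn), are given as a description without a test. PEG10 averaged 17077 at 94 dpc, 3243 at 1 dpn, 381 at 28 dpn and 152 at 188 dpn, 4 animals at the last stage and 6 at each of the others. LOC396711 likewise passed through a mean of 6821 at 1 dpn, with animals from 794 to 13842. At 188 dpn its mean was 311 but its median 98.9, with animals from 69.2 to 978. MYL4, in contrast, averaged 215 at 1 dpn and 293 at 28 dpn. MYH2 averaged 12005 at 1 dpn, closer to the fetal 6944 than to the 74914 of 28 dpn and the 79859 of 188 dpn. CKMT2 averaged 40585 at 1 dpn, 24909 at 28 dpn and 24689 at 188 dpn, but the arrays of 1 dpn were split. On replicates 1 and 6 of 1 dpn, whose GAPDH 5'/3' ratios were 1.14 and 1.15, CKMT2 was 21958 and 28712. That lies within its range at 28 dpn, 18238 to 30118. On the arrays of 1 dpn with a ratio of 0.332 or less it was 47145 to 49827. BPGM was still low at 1 dpn, with a mean of 340.0 against 2985 at 28 dpn and 3245 at 188 dpn. POSTN averaged 696, 1089.5 and 113 at the 3 postnatal stages, and SPP1 592, 274 and 699.5, the last with animals from 91.7 to 1453. Of the 1 dpn arrays 4 had a GAPDH 5'/3' ratio of 0.332 or less, against 0.731 or more on the arrays of 94 dpc and 28 dpn, and the part of this ratio in the levels of 1 dpn was not tested.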

How the data were processed

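Affymetrix porcine arrays of 22 samples carried biotinylated RNA from 0.5 µg of total RNA per the labels' protocols, and 12 of them, all of 94 dpc and 28 dpn, were compared. The deposited values are linear signal intensities per probe set. Per the submitters' processing notes the authors used GCOS 1.1.1. The mean after trimming 2% at each end is 500 on each of the 12 arrays, and detection calls were not used here. Signal was analysed as log2(signal + 16) in limma 3.58.1 under R 4.3.3 with statmod 1.5.0, without a filter, over 23999 probe sets after removal of 124 controls, with Benjamini-Hochberg adjustment and a threshold of 0.05. The fit was run on simulated data with independent errors, few changed probe sets and no shift of whole arrays between stages. It therefore does not cover likeness of littermates, wide change or the technical shifts of these arrays.

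Of the probe sets 10069 carried 1 gene symbol in the platform annotation (6765 genes), 198 several and 13732 none, and 9961 gene identifiers were found in RefSeq Sscrofa11.1. Probe sets with several symbols were not named. A gene is represented by its probe set with the highest mean. Dimmer probe sets that were not called are not mentioned for every gene. Background was the 95th percentile of 23 absent-target controls. A gene below it on all arrays of 1 stage has only a bound. The number of arrays limits the precision. Named were the 12 largest rises and falls without overlap, all members of lists with up to 12 measured members, and of longer lists the 4 largest called changes in each direction and the 2 brightest members not called, of which those that the text needed are given. Members and lists were chosen with earlier results of these data known, and so were the families within lists. Scaling to the hybridisation controls and leaving out 3 or 4 arrays with many hepatocyte genes above background were added after the data had been seen. The set of 3 was run first. The set of 4 was chosen once results of the set of 3 were known, because replicate 4 of 94 dpc held as many hepatocyte genes above background, and both are given.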

Additional observations from a re-analysis of the deposited data

Results flagged for a closer look

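In 32 of 484 groups of 6 animals of a named gene, the highest or lowest animal lay apart from the others by more than 0.625 of the range of the group on the log2 scale, which chance alone gives in about 1 group in 20. The values below are the signal of that animal, the range of the other 5 and the share of the range, in that order. Replicate 3 of 28 dpn held 11 of the 32. Replicate 1 of 28 dpn stood apart in UBE2T (243 against 342 to 415, 0.635). Replicate 2 of 28 dpn stood apart in CKB (236 against 181 to 199.8, 0.63). Replicate 3 of 28 dpn stood apart in GAMT (2434 against 4679 to 6584, 0.656), BCKDK (4035 against 5665 to 6851, 0.641), PSMB5 (8234 against 9954 to 10911, 0.674), HSPA8 (13832 against 22065 to 27154, 0.692), THBS2 (4468 against 1015 to 1406, 0.781), MDK (195 against 515 to 703, 0.753), GHR (782 against 362 to 482, 0.631), GRB10 (9469.6 against 3589.7 to 5048, 0.649), SNRPN (1187 against 1696 to 1973, 0.701), GLUL (29347 against 6748 to 11427, 0.642) and CNN1 (764 against 1954 to 2584, 0.77). Replicate 4 of 28 dpn stood apart in MYH2 (40149 against 70504 to 92460, 0.675), MRPS35 (567 against 703 to 753, 0.757), VEGFA (5162 against 6119.6 to 6746, 0.636) and MYC (723 against 310.5 to 404, 0.693). Replicate 6 of 28 dpn stood apart in TNNI1 (20527 against 36084 to 50602, 0.625), COL1A2 (832 against 1689.5 to 2333, 0.686), PHLDA2 (84.7 against 172 to 254, 0.631) and PAX3 (12.8 against 62.8 to 123, 0.64). Replicate 1 of 94 dpc stood apart in TRNP1 (73.2 against 16.9 to 30.4, 0.656). Replicate 2 of 94 dpc stood apart in MYBPC1 (28901 against 22780 to 24536, 0.688). Replicate 3 of 94 dpc stood apart in RORA (56.3 against 78.1 to 86.1, 0.763). Replicate 5 of 94 dpc stood apart in PHKB (1041 against 1377 to 1618, 0.634), PHKG1 (8.9 against 44.4 to 70.3, 0.713), MRPL10 (2964 against 1779 to 2124, 0.653), MRPL14 (6842 against 4829.5 to 5364, 0.699) and FABP4 (2567 against 4248 to 5740.3, 0.625). Replicate 6 of 94 dpc stood apart in SOD2 (811 against 1086 to 1267, 0.654), HMOX1 (552 against 615 to 653, 0.638) and GLUL (7841 against 9269 to 9941, 0.705).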

How the results depend on the processing

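The count of 9308 called probe sets stayed within 1.5 times under quantile normalization (8743), centring on the median (9336), pseudocounts of 1 (9015) and 64 (9625), all 22 arrays in the fit (7280), trended and robust variances (9554), array weights (9487), only probe sets above background (8760), a GAPDH covariate (8631), and 3 or 4 hepatocyte-rich arrays left out (7664 and 6399). Leaving out 1 array gave 8376 to 9380. Scaling to the hybridisation controls, chosen after seeing the data, moved it to 15080, with 751 higher and 14329 lower, because it lowers all differences by log2 0.83. Of 194 called genes named, 127 kept direction and call in all these settings and 6 lost the call when some 1 array was left out, with these adjusted p in limma: SERPINA1 without 94 dpc replicate 1 (0.05), 94 dpc replicate 4 (0.062), 94 dpc replicate 5 (0.053) and 28 dpn replicate 3 (0.058), CASQ2 without 94 dpc replicate 1 (0.063), 94 dpc replicate 2 (0.078), 94 dpc replicate 3 (0.059), 94 dpc replicate 4 (0.081), 94 dpc replicate 5 (0.081), 28 dpn replicate 1 (0.057), 28 dpn replicate 2 (0.058), 28 dpn replicate 5 (0.08) and 28 dpn replicate 6 (0.087), MRPL14 without 94 dpc replicate 1 (0.068), 94 dpc replicate 2 (0.051), 94 dpc replicate 3 (0.062), 94 dpc replicate 4 (0.055), 94 dpc replicate 5 (0.09), 94 dpc replicate 6 (0.057), 28 dpn replicate 3 (0.078), 28 dpn replicate 5 (0.087) and 28 dpn replicate 6 (0.059), MT1A without 94 dpc replicate 1 (0.055), 94 dpc replicate 3 (0.061), 94 dpc replicate 4 (0.064), 28 dpn replicate 4 (0.064), 28 dpn replicate 5 (0.059) and 28 dpn replicate 6 (0.07), CELA2A without 94 dpc replicate 1 (0.076), 94 dpc replicate 2 (0.1), 94 dpc replicate 3 (0.085), 94 dpc replicate 6 (0.066), 28 dpn replicate 1 (0.089), 28 dpn replicate 2 (0.062), 28 dpn replicate 4 (0.077) and 28 dpn replicate 6 (0.056), CPA1 without 94 dpc replicate 1 (0.054), 28 dpn replicate 1 (0.053), 28 dpn replicate 3 (0.053) and 28 dpn replicate 5 (0.056). No paired analysis was possible because the replicate numbers were given in accession order and pair no animals across stages. For dim genes the signal over background, not the number of arrays alone, limits what can be measured.

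Directions (log2) that turned were these; beyond the scaling itself, the cause was not tested. Under scaling to the hybridisation controls they were DES -0.28, MYLPF -0.019, MYBPC1 -0.33, SMPX -0.82, LMOD3 -0.79, MEF2A -0.79, MEF2D -0.76, ENO1 -0.37, LDHB -0.45, PYGL -0.032, PRKAG3 -0.53, IDH3B -0.75, NDUFA11 -0.50, ATP5G2 -0.75, ECHS1 -0.80, PPARGC1A -0.57, IVD -0.48, ACAD8 -0.085, MRPS21 -0.61, RPLP1 -0.15, RPS2 -0.33, PSMA7 -0.69, PSMB5 -0.64, HSP90AA1 -0.58, GPX4 -0.49, TUBB -0.82, SPARC -0.36, GHR -0.10, BMP4 -0.40, SNRPN -0.76, DUSP1 -0.79, GLUL -0.66, BHLHE40 -0.0095, PER1 -0.21, CRY2 -0.40, FABP4 -0.41, USP18 -0.15, IRF9 -0.44, VWF -0.11, DIO2 -0.79 and THRB -0.44. Under quantile normalization they were DES -0.11, MYLPF -0.013, MYBPC1 -0.072, SMPX -0.63, LMOD3 -0.20, LDHB -0.25, NDUFA11 -0.32, ATP5G2 -0.54, ECHS1 -0.55, MRPS21 -0.055, RPS2 -0.24, PSMA7 -0.52, PSMB5 -0.23, HSP90AA1 -0.36, GPX4 -0.084, TUBB -0.45, SPARC -0.11, IGF1 0.053, DUSP1 -0.10, GLUL -0.26, DBP 0.12 and DIO2 -0.070. Under centring on the median they were MRPL17 0.053 and B2M 0.055. Under the mean of all probe sets of a gene they were ACO1 0.19, RPLP1 -0.31, HSPA8 -0.41, GPX4 -0.016, HMGB1 0.28, IGF1 0.14 and B2M 0.61. Under the GAPDH ratio as a covariate they were MEF2A -0.032, MRPL17 0.033, TUBB -0.029 and B2M 0.0051. Under array weights they were B2M 0.0045. With 3 arrays with hepatocyte transcripts left out they were SMPX -0.095, ECHS1 -0.00027, TUBB -0.053 and DUSP1 -0.020. With 4 such arrays left out they were SMPX -0.097, ECHS1 -0.037 and TUBB -0.070. When 1 array was left out, ranges that crossed 0 were SMPX from -0.050 to 0.089, LMOD3 from -0.029 to 0.10, MEF2A from -0.0092 to 0.11, ECHS1 from -0.12 to 0.16, MRPL17 from -0.064 to 0.020, PRDX4 from -0.20 to 0.011, TUBB from -0.049 to 0.11, DUSP1 from -0.061 to 0.19, GLUL from -0.13 to 0.30, DBP from -0.16 to 0.013, B2M from -0.043 to 0.022 and DIO2 from -0.23 to 0.26.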
